A study of Mus musculus with 12 samples.

Results

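The response to bleomycin was described across all genes in cells sorted from the lungs of mice with an alveolar p300 deletion, from 6 of the 12 libraries of the series. The KO group was 3 PBS-treated Spc-p300 d/d mice, in which tamoxifen (10 mg/kg, given from 8 weeks of age) removed a floxed exon of Ep300 through Spc-CreERT2, and the KOBLM group was 3 mice of the same genotype that received 4 mg/kg bleomycin after the tamoxifen. Both groups therefore carry the deletion and had tamoxifen, and they differ in bleomycin. The cells were sorted as CD74+ EpCAM+ and are labelled alveolar type II (ATII) cells, with 1 library per mouse, and the time from bleomycin to sorting was not given in the sources used here. Spc-CreERT2 acts where the Sftpc promoter is active, so other cells that pass the sort keep Ep300. The control genotype, given PBS (Con, 3 mice) or bleomycin (BLM, 3 mice), is used only where the size of the bleomycin effect was compared between genotypes. Its samples are labelled with the same tamoxifen, and the Con samples are titled WT. The paper's main text calls these mice Spc-p300 f/f, while its supplement names C57BL/6 mice for the RNA-seq cells. For a qRT-PCR of sorted cells the supplement describes vehicle or tamoxifen. Whether the genotypes also differed in tamoxifen cannot be told from these sources.

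Bleomycin is a DNA-cleaving drug that injures the alveolar epithelium and is widely used to provoke lung fibrosis in mice. ATII cells make surfactant and act as progenitors of the thin type I cells. After injury they can activate p53 and its cell cycle inhibitor Cdkn1a, pass through a transitional keratin-rich state and signal to fibroblasts and leukocytes. p300 is a histone acetyltransferase and coactivator recruited by transcription factors such as C/EBP proteins to promoters and enhancers.

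The 6 libraries held 7281246 to 10807871 counts, but the number of genes with a count ranged from 8790 to 12932. KO 3 (8790 genes) and KOBLM 2 (9018 genes) had the fewest, and Rn45s, the ribosomal RNA precursor, took 2.45% to 21.59% of the counts. Libraries of the same group were as far apart as libraries of different groups, with Spearman correlations of 0.683 to 0.863 over the 6 libraries. The spread between mice was wide (biological coefficient of variation 1.44), and many genes were at 0 in whole libraries.

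The sort label was checked against defining markers. Sftpc, the surfactant protein C gene, had 1344, 81 and 802 counts in KO 1 to 3 and 788, 503 and 5 in KOBLM 1 to 3, and Lamp3, a lamellar body protein, had 131, 1 and 419 against 13, 0 and 0. Chil3, a product of alveolar macrophages, had 99922, 32699 and 330149 counts against 28704, 127488 and 81151, and Marco, a macrophage scavenger receptor, had 4871, 10352 and 8197 against 4774, 6096 and 13051. Epcam itself, a gate of the sort, had 1785, 20 and 830 counts in KO and 81, 1576 and 27 in KOBLM. Chil3 and Marco were thus far above Sftpc and Lamp3 in both groups, and the macrophage markers Mrc1 and Cd68 also lay above the ATII markers in every library. Adgre1, another macrophage marker, had 2003, 1032 and 2659 counts against 1054, 1806 and 1458. It was close to the surfactant gene Sftpa1 (1769, 139 and 2516 against 1006, 384 and 141) in KO 1, KO 3 and KOBLM 1. Foxj1, the ciliated cell factor, was at 0 in all 6. In such bulk samples, fewer cells of a type and less RNA per cell cannot be told apart.

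Ep300 had 1434, 1118 and 1113 counts in KO and 1266, 563 and 866 in KOBLM, a log2 difference of -0.35 ± 0.69 (SE). The reads of this 3′ end protocol fall beyond the floxed exon, so they do not check the deletion.

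Of 13054 genes tested, 221 (1.69%) differed by more than 1.5-fold at an unadjusted p under 0.05 in edgeR's quasi-likelihood test, the rule by which a gene is named called here. Bleomycin-treated KOBLM libraries were higher at 152 genes (1.16%) and lower at 69 (0.529%). None passed after Benjamini-Hochberg adjustment (edgeR; smallest adjusted p = 1), and all 221 genes at an unadjusted p under 0.05 were also past the fold; 653 genes would lie under that threshold if no gene differed. DESeq2 called 57 genes at an adjusted p under 0.05. Most calls came from detection: 117 of the 152 higher genes (77.0%) were at 0 in every KO library, and 56 of the 69 lower genes (81.2%) at 0 in every KOBLM library. With 3 mice against 3, an exact permutation test of a single gene cannot go below p = 0.1, and genes whose groups do not overlap reach that value. The edgeR adjusted p of every gene named here was 1, so a call marks the unadjusted threshold alone, and differences are given as log2 values ± the SE of the edgeR fit. A gene with 0 counts in a whole group is given by its counts or by a lower bound on its fold.

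The count of calls depended on single mice. Leaving out KO 1 gave 402 (356 higher, 46 lower), KO 2 180 (118 and 62), KO 3 105 (44 and 61), KOBLM 1 125 (72 and 53), KOBLM 2 174 (153 and 21) and KOBLM 3 191 (111 and 80). Without both libraries with the fewest genes, a setting added after the data were seen, 69 genes were called (58 higher, 11 lower). Among the 50 called genes singled out by p, by CPM, by interaction or as members of a gene list (33 higher, 17 lower), 14 stayed called in all 6 fits that leave out a library of these groups. They were Adamts1, Ptrf, Jak2, Dpt, Slfn1, Vcam1, Grb10, Ptpn13, Pfkm, Col23a1 and Tnc among the higher genes and Arhgef39, Clspn and Espl1 among the lower ones. The fits without a library lost 18 of the 50 calls without KO 1, 23 without KO 2, 23 without KO 3, 25 without KOBLM 1, 22 without KOBLM 2 and 19 without KOBLM 3.

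The gene with the smallest p was Adamts1, a secreted protease that cleaves the proteoglycans aggrecan and versican. It had 0, 5 and 0 counts in the KO libraries and 682, 282 and 168 in the KOBLM libraries, or 0.275 ± 0.475 against 47.5 ± 41.7 CPM (counts scaled to the TMM-normalized library size; mean ± SD, n = 3 mice). Ptrf (Cavin1), the coat protein that shapes caveolae, had 439, 241 and 164 counts against 1893, 2344 and 596, a log2 difference of 2.48 ± 0.69. Jak2, the kinase that relays cytokine receptor signals to STAT factors, had 175, 27 and 81 counts against 498, 1399 and 478 (3.12 ± 0.97). In all 3 genes every KOBLM library lay above every KO library, which was the case for 503 of all genes tested (3.85%). Genes named by p or by CPM had to meet this condition or its reverse, so the separation is no result about them.

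Several genes of the vessel wall, of stroma and of growth signalling were at 0 in every KO library and present in every KOBLM library. Dpt, which encodes the matrix protein dermatopontin, had 102, 305 and 62 counts in KOBLM, at least 47.6-fold higher than a floor of 3 counts per KO library. Vcam1, an adhesion molecule for leukocytes, had 277, 222 and 45 counts, at least 61.4-fold higher. The insulin receptor adaptor Grb10 had 165, 295 and 9 counts, the tyrosine phosphatase Ptpn13 had 31, 316 and 40, and Pfkm, a phosphofructokinase of glycolysis, had 4, 502 and 53. The last 3 were thus uneven among the KOBLM mice, with the highest value in KOBLM 2 each time. Slfn1, a Schlafen gene tied to T cell quiescence, had 3, 7 and 0 counts in KO against 282, 516 and 187.

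More abundant genes differed less, and they too were named only if the groups did not overlap. Cdkn1a, which encodes the p53-induced cell cycle inhibitor p21, had 3810, 1513 and 2702 counts in KO and 5883, 11849 and 5228 in KOBLM, or 293 ± 97.1 against 859 ± 244 CPM (2.93-fold, or 1.55 ± 0.55 on the log2 scale). The call was lost without KO 3. Ifitm3, an interferon-induced membrane protein that blocks virus entry, had 409, 768 and 1333 counts against 1975, 2949 and 1762 (2.74-fold, or 1.45 ± 0.67 on the log2 scale), and its call was lost whichever library was left out. Irak2, a kinase of Toll-like and interleukin-1 receptor signalling, had 477, 236 and 852 counts against 577, 3012 and 913 (2.97-fold, or 1.57 ± 0.66 on the log2 scale). KOBLM 2 was the highest library, and the call was lost without it and without KO 1 or KO 2. Ece1, the endothelin-converting enzyme, had 851, 106 and 143 counts against 2517, 982 and 780 (4.51-fold, or 2.17 ± 0.86 on the log2 scale), and was not called without KOBLM 1, KO 2 or KO 3. Cmas, which activates sialic acid for transfer to glycans, had 545, 375 and 475 counts against 680, 2398 and 975 (2.77-fold, or 1.47 ± 0.59 on the log2 scale), and its call was lost without KOBLM 2 or any single KO library.

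**Figure D1:**
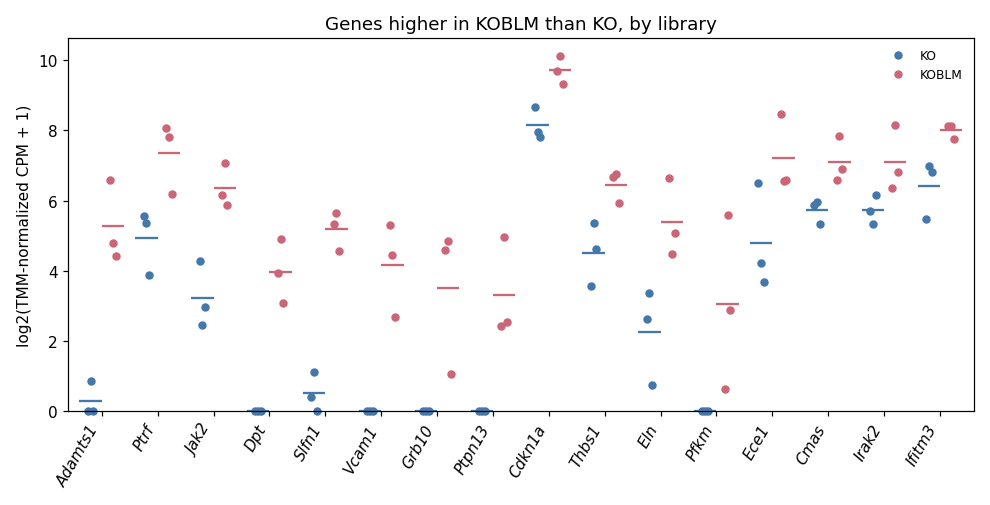
Level of the named genes higher in KOBLM, in log2(TMM-normalized CPM + 1), for each KO and KOBLM library, ordered by edgeR p. Points are libraries (3 mice per group) and bars the means of the plotted values. The KOBLM points lie above the KO points for each gene shown, as the naming rule required, and Dpt, Vcam1, Grb10, Ptpn13 and Pfkm are at 0 in all 3 KO libraries.

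Joined from several lists, extracellular matrix genes held the most calls among the groups of gene lists used. Single matrix lists had at most 3 calls. The lists of junction genes (11.8% called), chemokine receptors (11.1%) and complement (11.1%) had higher shares. Of 148 matrix genes tested, 8 were called higher and 0 lower (5.41%, against 1.69% of all genes), and the median log2 difference was 0.76 against 0.08 over all tested genes (0.33 without KOBLM 1 and 1.16 without KO 2). Over all tested genes, 53.8% had a positive difference. Over the alternative settings 5 to 16 of these genes were called higher and 0 to 4 lower. The list was chosen with results of these data known, so the count describes it and is not independent evidence of its direction.

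The called matrix genes cover structural proteins, matricellular proteins and protease control. Eln, the gene of elastin, had 49, 57 and 8 counts in KO and 701, 226 and 267 in KOBLM, 9.96-fold higher, with the call lost without KOBLM 1. Thbs1, thrombospondin 1, which can release TGF-β from its latent form, had 102, 244 and 285 counts against 714, 1131 and 496, 3.57-fold higher, with the call lost without KO 1. Neither gene overlapped between groups.

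Tnc, the gene of tenascin C, a glycoprotein of injured tissue, was at 0 in KO and had 28, 0 and 52 counts in KOBLM. Timp1, an inhibitor of matrix metalloproteinases, was at 0 in KO and had 4, 0 and 135 counts, and its call was lost without KOBLM 3. Its relative Timp3 had 554, 302 and 28 counts against 3361, 598 and 708, with overlap between groups and the call lost without KOBLM 1 or KO 3. The fibrillar collagen Col11a1 (29, 0 and 18 counts in KOBLM) and the transmembrane collagen Col23a1 (52, 294 and 21) were both at 0 in KO, and Col11a1 stayed called only when KOBLM 2 was left out.

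The abundant fibrillar collagens were not among the calls. Col1a1 had 34, 241 and 2425 counts in KO and 371, 2538 and 101 in KOBLM (log2 difference 0.31 ± 1.24), and Col3a1 had 76, 554 and 75 against 618, 734 and 373 (0.93 ± 0.94). Fibronectin, Fn1, had 3859, 7733 and 5593 counts against 3562, 8192 and 11695 (0.32 ± 0.58). Of 34 TGF-β ligands, receptors and Smads tested 0 were called, with a median of 0.48 (0.03 without KOBLM 3). Of 15 laminin and basement membrane genes 0 were called, and their median of 1.35 became 0.00 without KOBLM 1 and 3.54 without KO 1.

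**Figure D2:**
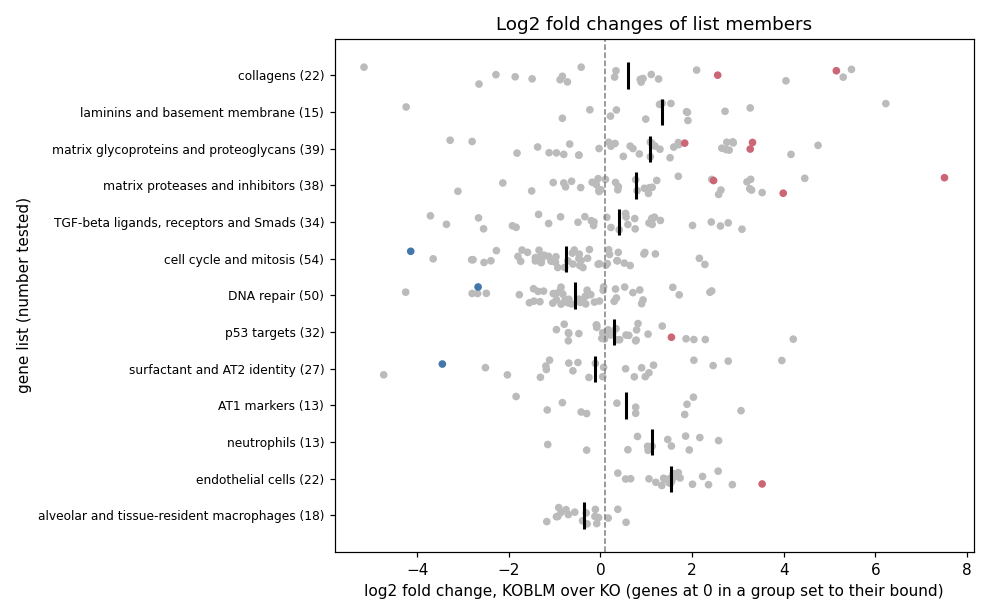
Log2 fold change of KOBLM over KO (x axis) for tested members of 13 gene lists, with genes at 0 in a group set to their bound and genes at or under 3 counts in every library not drawn. Each point is a gene, red if called higher, blue if called lower, grey if not called; black bars are list medians and the dashed line is the median of all tested genes (0.09). The cell cycle and DNA repair medians lie left of the dashed line, and those of the matrix, neutrophil and endothelial lists right of it.

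Genes of DNA replication and mitosis mostly had negative differences, with few calls. Of 54 cell cycle genes tested, 40 had a negative log2 difference, as had 5958 of all 13054 genes. The median was -0.75 against 0.08 over all genes. In 14 of them every KOBLM library lay below every KO library (3.02% of all tested genes did so). Their summed level overlapped (2152.2 to 3244.2 CPM in KO, 1749.6 to 2547.0 CPM in KOBLM). In no member did the KOBLM libraries all lie above. Only Kif2c, a kinesin that depolymerizes microtubules at kinetochores, was called (58, 77 and 0 counts in KO, 0 in KOBLM), and not without KO 2 or without any single KOBLM library. That is 1.85% of the list, near the 1.69% of all genes. The list median was negative in every setting run, from -1.21 without KOBLM 1 to -0.49 without both libraries with the fewest genes.

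The 4 members given here did not overlap between groups and were chosen after their values were seen. Their differences were larger than the list median of -0.75. Mcm7, a subunit of the replicative helicase, had 1660, 590 and 1695 counts in KO and 693, 633 and 449 in KOBLM (138 ± 39.5 against 70.4 ± 23.2 CPM, log2 difference -0.97 ± 0.63). Pcna, the sliding clamp of DNA polymerases, had 883, 563 and 1709 against 450, 346 and 521 (-1.05 ± 0.63). Cdk1, the mitotic kinase, had 344, 146 and 869 against 91, 0 and 122 (-2.27 ± 1.38), and the mitotic kinesin Kif20a had 231, 104 and 801 against 67, 0 and 50 (-2.81 ± 1.60). None of the 4 passed the test, and Mki67, the common proliferation marker, overlapped between groups (631, 790 and 572 against 660, 71 and 500).

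Some of the lower genes named by p, outside that list, are also known for roles in replication or division. Clspn (claspin), which carries the replication checkpoint signal to Chk1, had 109, 39 and 705 counts in KO and 2, 0 and 3 in KOBLM. Espl1, the separase that frees sister chromatids, had 65, 52 and 676 against 0, 0 and 2. Cep55, needed for the final cut between daughter cells, had 95, 52 and 186 against 0 in all 3, at least 32.0-fold lower. KO 3 was the highest library for each of these genes. Without KO 3 all 3 genes were still called, and the call of Cep55 was lost without any single KOBLM library.

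Arhgef39 had 13, 56 and 508 counts in KO and 0 in all KOBLM libraries, at least 49.6-fold lower. Mzt2, a component of the γ-tubulin ring that nucleates microtubules, had 262, 189 and 184 against 35, 4 and 0, 14.1-fold lower. Its call was kept without KO 3 or KOBLM 1 and lost without any other library of these groups.

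Among the called genes, Parp2 and Slx1b act in DNA repair. Parp2, a poly(ADP-ribose) polymerase that responds to strand breaks, had 448, 601 and 841 counts in KO and 125, 4 and 133 in KOBLM, or 72.2 ± 25.8 against 11.3 ± 9.52 CPM, 6.37-fold lower. Its call was lost without KO 2, KO 3, KOBLM 2 or KOBLM 3. Slx1b, a subunit of a structure-specific nuclease, had 71, 53 and 349 against 5, 5 and 16, 14.6-fold lower, with the call lost without KO 3 or any single KOBLM library. Over the 50 DNA repair genes tested, which include Parp2 but not Slx1b, 36 were negative with a median of -0.55 (-0.11 without KO 1, -0.22 without KOBLM 2 and -0.94 without KOBLM 3), and 1 was called, a share near the 1.69% of all genes. Among 32 p53 target genes, 23 were positive with a median of 0.31 (0.77 without KO 2, 0.65 without KO 1, 0.50 without KOBLM 2 and 0.19 without KO 3). Their summed level was 1189.3 to 1667.2 CPM in KO and 1947.4 to 2853.9 CPM in KOBLM, without overlap. Cdkn1a was the called member (3.12%, against 1.69% of all genes). Cdkn1a supplied much of that sum: without it the ranges were 964.5 to 1263.4 and 1313.6 to 1735.2 CPM, and without Cdkn1a and Mdm2, members left out after their values were seen, the groups overlapped (838.2 to 1139.7 and 1067.2 to 1474.4 CPM). Mdm2, the ubiquitin ligase that p53 induces against itself, had 1167, 909 and 1517 counts against 1425, 2762 and 2032 (log2 difference 0.82 ± 0.48).

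The other lower genes have varied roles. Atp13a3, a transporter of polyamines, was the most abundant, with 2417, 514 and 1560 counts against 429, 239 and 621 (157 ± 88.9 against 52.6 ± 27.1 CPM, 2.98-fold lower), and its call was lost without KO 1, KOBLM 1 or KOBLM 2. Tbc1d7, a subunit of the TSC complex that restrains mTORC1, had 133, 149 and 572 counts against 0, 2 and 2. Bbs9, part of the BBSome that sorts cargo into cilia, had 86, 143 and 13 against 0, 0 and 1. The lysophospholipid receptor Gpr55 (56, 30 and 252) and the ectonucleotidase Entpd2 (21, 22 and 386) were at 0 in all KOBLM libraries. The call of Bbs9 was lost without KO 2, KOBLM 1 or KOBLM 2, and those of Tbc1d7, Gpr55 and Entpd2 without KO 3 or any single KOBLM library.

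**Figure D3:**
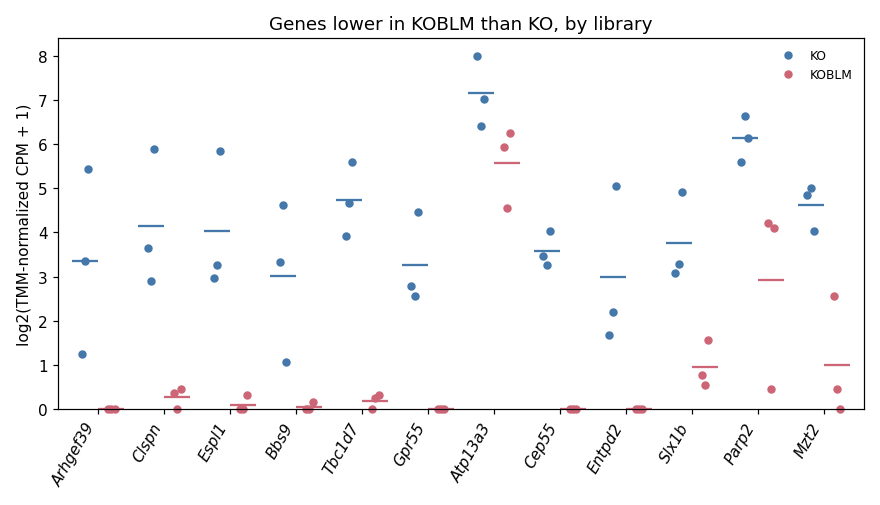
Level of the named genes lower in KOBLM, in log2(TMM-normalized CPM + 1), for each KO and KOBLM library, ordered by edgeR p. Points are libraries (3 mice per group) and bars the means of the plotted values. All KOBLM points lie below the KO points for each gene shown, as the naming rule required, and Arhgef39, Gpr55, Cep55 and Entpd2 are at 0 in all 3 KOBLM libraries.

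The upstream sequence of 3 of these genes is shown because Adamts1 had the smallest p and Espl1 and Clspn are lower genes of the cell cycle, whose promoters often hold a CCAAT box and a CHR element. Each is the stretch of 250 bases before the RefSeq start, build GRCm38.p6, 5′ to 3′ on the gene's strand, with motif matches in capitals. Adamts1 (chr16:85803114-85803363, minus strand) holds a TATA box (TATAAA), Espl1 (chr15:102296043-102296292, plus strand) holds a CCAAT box, a CHR (TTTGAA) and 2 matches to the E2F letters TTTNNCGC, and Clspn (chr4:126556730-126556979, plus strand) holds 2 CCAAT boxes.
Adamts1: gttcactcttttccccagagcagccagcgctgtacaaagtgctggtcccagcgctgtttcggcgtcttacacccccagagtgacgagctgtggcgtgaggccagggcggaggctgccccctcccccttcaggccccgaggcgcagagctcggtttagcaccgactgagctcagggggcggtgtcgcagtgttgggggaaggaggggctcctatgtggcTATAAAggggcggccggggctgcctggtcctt
Espl1: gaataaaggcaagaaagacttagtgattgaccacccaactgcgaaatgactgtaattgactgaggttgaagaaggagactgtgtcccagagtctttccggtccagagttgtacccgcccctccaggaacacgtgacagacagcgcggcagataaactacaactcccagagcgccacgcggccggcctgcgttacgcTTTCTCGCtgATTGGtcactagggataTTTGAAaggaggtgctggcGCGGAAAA
Clspn: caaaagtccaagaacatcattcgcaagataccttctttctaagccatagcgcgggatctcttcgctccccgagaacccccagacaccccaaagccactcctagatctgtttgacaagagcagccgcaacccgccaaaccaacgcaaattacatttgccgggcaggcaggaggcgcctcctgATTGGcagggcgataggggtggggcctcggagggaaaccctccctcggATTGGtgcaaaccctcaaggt

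Matches were searched on both strands in the same 250 bases of 27025 genes with a RefSeq promoter entry. CCAAT was found in 37.5% of all genes, in 33 of the 43 tested cell cycle genes that had an entry (76.7%), in 3 of 15 named lower genes (20%) and in 8 of 25 named higher genes (32%). The CHR letters were found in 18.3% of all genes, in 11 of those 43 (25.6%), in 6 of 15 named lower genes (40%) and in 3 of 25 named higher genes (12%). AP-1 letters (TGANTCA) were found in 7.82% of all genes and in 1 of 25 named higher genes (Ifitm3). The E2F letters were in 4.94% of all genes and 7 of the 43 (16.3%), TATAAA in 14.3% and 3 of 25 higher genes, and the CRE letters TGACGTCA in 1.77% and 0 of 25. Such matches describe letters in these windows and not binding.

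Genes of the alveolar epithelium were split in sign. Of 27 surfactant and ATII genes tested, 12 were positive and 14 negative with a median of -0.11 (0.13 without KO 1 and -0.22 without KOBLM 1). The called member (3.7%, against 1.69% of all genes) was Hc, complement component 5, with 57, 34 and 0 counts in KO and 0 in KOBLM. Its call was lost without any library but KO 3. Sftpc differed by -0.49 ± 1.17 on the log2 scale, Sftpb by -1.18 ± 1.41 and Sftpa1 by -1.11 ± 0.91, all with overlap. The other defining ATII markers, Abca3 (-1.31), Lamp3 (-4.73) and Slc34a2 (-0.60), were also negative with overlap, and no defining marker was called. The 12 positive members included Etv5 (2.04), Cldn18 (2.46) and Lyz2 (0.90), also not called. Ctsh, a cathepsin that processes surfactant protein precursors, had 1585, 1194 and 2462 counts against 1427, 5691 and 4456 (1.17 ± 0.59).

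Of 19 markers of the transitional keratin-rich state, 12 were positive, with a median of 0.77 (0.25 without KOBLM 1 and 0.28 without KOBLM 2). Cdkn1a alone was called (5.26%, against 1.69% of all genes). Krt8 itself had 18, 40 and 1 counts in KO and 0, 0 and 52 in KOBLM. Type I cell markers had 0 called of 13, and their median of 0.77 ranged from 0.04 without KOBLM 1 and 0.31 without KOBLM 3 to 1.74 without KO 1. Clic5, a chloride channel protein of type I and endothelial cells, had 729, 120 and 368 counts against 2636, 625 and 761 (log2 difference 2.03 ± 1.44). Of 17 junction genes, with 7 positive, 8 negative and a median of 0.00, 2 were called (against 1.69% of all genes), Dsp (desmoplakin; 0, 664 and 6 counts in KOBLM) and the epithelial transcription factor Grhl2 (78, 0 and 25), both at 0 in KO and both resting on few libraries. Dsp was not called without KOBLM 2 or any single KO library, and Grhl2 was called only when KOBLM 2 was left out.

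None of the study's chemokines passed the test between bleomycin and PBS in the knockout. Ccl2, the ligand of CCR2 that draws monocytes, had 358, 2825 and 0 counts in KO and 829, 233 and 1447 in KOBLM (log2 difference -0.68 ± 1.83). Ccl7, another CCR2 ligand, had 0, 345 and 0 against 47, 422 and 129 (0.13 ± 2.33), and Ccl12, a mouse monocyte chemokine, had 83, 32 and 0 against 0, 0 and 73 (-0.67 ± 2.60). Errors of this size leave differences of many fold in either direction undetected at this depth and spread. KO 2 held most of the Ccl2 and all of the Ccl7 counts of its group, and without KO 2 the direction of Ccl2 reversed, as given in the section on processing.

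Few other mediators were called. Of 15 CC chemokines 0 were called, and of 13 CXC, CX3C and XC chemokines 1 (7.69%, against 1.69% of all genes). It was the B cell attractant Cxcl13, at 14, 69 and 0 counts in KO and 0 in KOBLM. Its call was lost without KO 2 or any single KOBLM library. Among receptors, the T cell receptor for interferon-induced chemokines, Cxcr3 (0, 53 and 195 counts in KO), was at 0 in KOBLM, and the scavenger receptor Ackr3 had 1, 0 and 0 counts against 365, 0 and 145. The costimulatory ligand Tnfsf9 and the complement inhibitor Cd59a, both at 0 in KO, were called higher, with at most 51 counts in a KOBLM library each. The call of Cxcr3 was lost without any library but KO 1, that of Ackr3 without KO 2, KO 3 or KOBLM 1, that of Cd59a without KOBLM 1 or any single KO library, and that of Tnfsf9 whichever library was left out.

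Il1b, the inflammatory cytokine interleukin-1β, had 520, 1411 and 1596 counts in KO and 3847, 4714 and 3458 in KOBLM (140 ± 88.9 against 468 ± 62.9 CPM), every KOBLM library above every KO library but not past the test (log2 difference 1.74 ± 0.94). Of 21 NF-κB subunits and feedback inhibitors 17 were positive and 0 called, with a median of 0.46 (0.21 without KOBLM 1, 0.69 without KO 1, 1.04 without KOBLM 2 and 1.31 without KO 2). Relb, a subunit of the noncanonical pathway, had 357, 18 and 32 counts against 749, 442 and 464 (2.22 ± 1.24), and the inhibitor Nfkbie had 101, 133 and 0 against 607, 758 and 675 (2.87 ± 1.82). Of 46 interferon-stimulated genes 0 were called, with a median of -0.19 that ranged from -0.67 without KOBLM 1 to 0.29 without KO 2. Of the 11 MHC class II genes 0 were called, with a median of -0.07 that ranged from -0.33 without KO 2 to 0.54 without KO 3.

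Markers of other cell types held few calls. Of 158 tested genes of such lists, pluripotency genes included, 4 were called higher and 1 lower (3.16%, against 1.69% of all genes). The summed level of the neutrophil list (13 genes tested) was 394.1 to 1070.4 CPM in KO and 1615.5 to 2496.3 CPM in KOBLM, without overlap. Of the 45 lists, the sums of p53 targets, of mast cells and basophils and of the C/EBP family with Uchl3 also did not overlap. The mast cell sums were 59.6 to 74.0 CPM in KO and 102.1 to 382.7 in KOBLM. The C/EBP sums were lower in KOBLM (1286.1 to 1655.1 against 1177.4 to 1265.6 CPM). All other list sums overlapped. With 3 mice against 3, groups without overlap reach only p = 0.1 in an exact permutation test. Some of 45 sums would thus separate if no list differed. Without S100a8 and S100a9 the neutrophil ranges were 169.3 to 227.6 and 369.8 to 521.8 CPM. S100a9, a subunit of calprotectin, had 1820, 2736 and 1829 counts against 10343, 6546 and 6867 (log2 difference 1.86 ± 1.31). Its partner S100a8 had 1155, 2466 and 171 against 3982, 6560 and 3403 (1.55 ± 1.27). In 5 of the 13 genes every KOBLM library lay above every KO library (3.85% of all tested genes did so), with 0 called. Il1b and Irak2 are also expressed by neutrophils and macrophages, and the part of such cells in their values was not tested.

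All 22 tested endothelial genes were positive, with a median of 1.55, and 1 was called (4.55%, against 1.69% of all genes). Lyve1, the hyaluronan receptor of lymphatic vessels and some macrophages, had 242, 38 and 0 counts in KO and 1334, 1502 and 330 in KOBLM, 11.6-fold higher, with the call lost without KO 2 or KOBLM 1. Pecam1 had 897, 65 and 0 counts against 1787, 5 and 407, and Cdh5, the cadherin of endothelial junctions, 740, 163 and 252 against 2466, 39 and 514, so KOBLM 1 was the highest library in both and KOBLM 2 the lowest of the KOBLM libraries. The summed endothelial level was 445.6 to 1439.6 CPM in KO and 823.2 to 3948.5 CPM in KOBLM. KOBLM 1 was also the highest library for Adamts1, Eln, Vcam1, Ece1 and Timp3, and without KOBLM 1 the endothelial median was 0.43 with 0 called, and 5 matrix genes were called higher and 1 lower. Without KO 1, in contrast, the endothelial median was 3.17 with 5 called. The part of endothelial cells in these genes was not tested.

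Fibroblast and mural cell genes had a median of 1.09 over 15 tested (0.59 without KO 1 and 0.72 without KOBLM 1). The smooth muscle myosin Myh11 was the called member (6.67%, against 1.69% of all genes), at 0 in KO and 40, 321 and 0 counts in KOBLM. Its call was lost without KO 1, KO 3 or KOBLM 2. Pdgfra, a marker of lung fibroblasts, had 35, 38 and 7 counts against 192, 0 and 0. Red cell and platelet genes had a median of 3.01 over 11 tested with 0 called, and of 0.67 without KOBLM 2 and 1.43 without KOBLM 1. In KOBLM 2 the globin Hba-a1 had 75143 counts against 564 to 7599 in the other 5 libraries. The 18 alveolar macrophage genes had a median of -0.35 (-0.63 without KOBLM 2) with 0 called, and their summed level overlapped (15326.4 to 41995.0 CPM in KO, 11202.5 to 25715.2 CPM in KOBLM). Of 22 genes of recruited and alternatively activated macrophages, 16 were positive and 0 called, with a median of 0.36. That median ranged from -0.27 without KOBLM 3 to 2.43 without KO 2. Single dendritic and T cell genes were called from low counts, Siglech (1, 0 and 0 against 138, 248 and 41) and Cd3g (0 in KO, 31, 19 and 51 in KOBLM). The call of Cd3g was lost whichever library of these groups was left out, and that of Siglech without any but KOBLM 3.

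**Figure D4:**
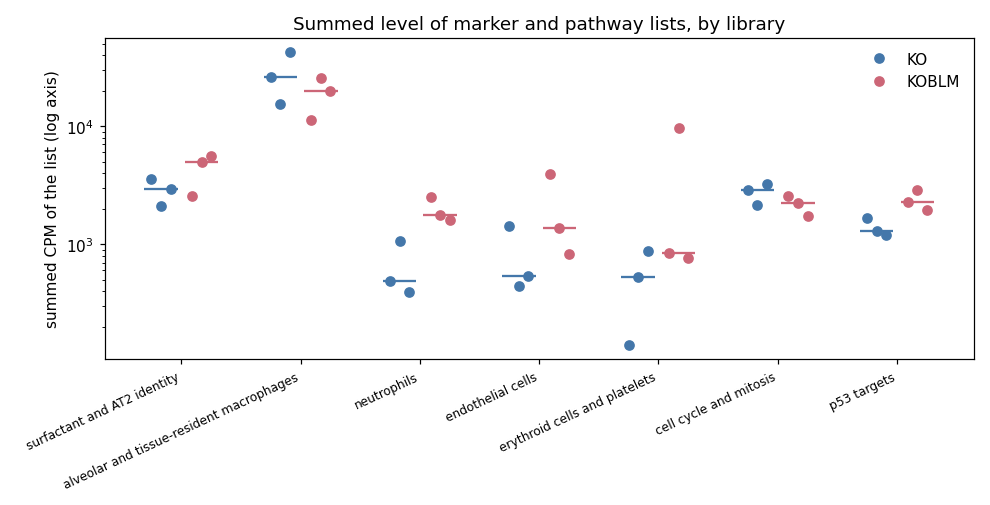
Summed CPM of 7 gene lists (log axis) in each KO and KOBLM library; points are libraries (3 mice per group) and bars are group medians. The neutrophil and p53 sums do not overlap between groups. The sums of the surfactant and ATII, alveolar macrophage, endothelial, red cell and platelet, and cell cycle lists do. The surfactant and ATII sum was highest in KOBLM 3 (5547.0 CPM), where Sftpc had 5 counts, so it does not follow Sftpc.

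Metabolic and chromatin lists held few calls. Ribosomal protein genes had a median of 0.01 over 78 genes and nuclear-encoded oxidative phosphorylation genes -0.09 over 75, with 0 called in each. Of 25 glycolysis and glucose uptake genes 2 were called (8%, against 1.69% of all genes), Pfkm and Ldhb. Ldhb, a lactate dehydrogenase subunit, was found only in KOBLM 3 (159 counts, 0 in the other 5 libraries). It was not called without any single KO library. Of 16 histone acetyltransferase genes 13 were negative, with 0 called and a median of -0.35 that ranged from -0.63 without KOBLM 1 to -0.17 without KO 2. Crebbp, the close relative of Ep300, had 1530, 1125 and 2484 counts against 1530, 2687 and 1723 (log2 difference 0.29 ± 0.45). Dnmt3b, a de novo DNA methyltransferase, had 32, 0 and 129 counts in KO and was at 0 in KOBLM, with the call lost without KO 3 or any single KOBLM library.

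Bleomycin against PBS in the control genotype uses other mice, but both contrasts share 1 estimate of the spread per gene, so calls in both are not independent and the shares are given as a description. Of the 152 genes called higher in KOBLM, 98 (64.5%, against 47.3% of all tested genes) were also higher in BLM than Con and 15 (9.87%) were called higher there, against 2.19% of all tested genes. Of the 69 called lower, 32 (46.4%, against 52.5% of all genes) were lower and 7 (10.1%) called lower in BLM, against 2.08% of all genes. The opposite call was made for 3 of the 152 and 4 of the 69. BLM 3 had the fewest genes of the series (6847) and 2228 counts of the pluripotency gene Nanog, against 2 to 20 in the other 11 libraries, and without BLM 3 the called shares were 10.5% of the 152 and 7.25% of the 69, against 2.93% and 2.7% of all genes. The shares by sign were then 66.4% of the 152 higher (51.7% of all genes) and 55.1% of the 69 lower (48.0% of all genes).

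The 15 genes called higher with bleomycin in both genotypes were the listed matrix genes Timp1, Thbs1, Tnc, Eln and Col11a1 together with Adamts14, Cdkn1a, Ifitm3, Jak2, Igf2bp3, Rhou, Klhl13, Cdk20, Ocstamp and Siglech. Thbs1 differed by 3.35 on the log2 scale in the control genotype and by 1.84 in the knockout, and the difference between the effects was -1.51 ± 0.91, not past the interaction test. For Cdkn1a the effects were 1.19 and 1.55, for Ifitm3 1.78 and 1.45, for Jak2 2.12 and 3.12, and for Eln 3.37 and 3.32. The 7 genes called lower in both were Atp13a3, Hc, Krt4, Dapl1, Gbp10, Ntn3 and Zfp235, and Atp13a3 differed by -1.55 and -1.58.

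The interaction test of edgeR called 368 genes (2.82% of those tested), where 653 would lie under the unadjusted threshold if no gene differed. After adjustment 0 passed (edgeR, smallest adjusted p = 1). Adamts1, Ptrf and Parp2 were among the 368. For Adamts1 the control genotype gave 114, 459 and 576 counts with PBS and 560, 179 and 900 with bleomycin, so the knockout without bleomycin was the low group (interaction 6.92 ± 2.05, the knockout's log2 effect minus the control genotype's). The Con libraries held 777, 1209 and 805 counts of Ptrf and the BLM libraries 846, 568 and 1483 (2.42 ± 0.94). For Parp2 these were 131, 523 and 424 with PBS and 241, 229 and 2909 with bleomycin (-4.00 ± 1.64). Ccl7, at 0 in Con and with 1016, 1101 and 0 counts in BLM, was past the unadjusted threshold of the interaction test, while Ccl2 and Ccl12 were not. For Adamts1 and Ptrf every KO library thus lay below every Con library in CPM, while KOBLM and BLM overlapped; the difference between KO and Con was not tested.

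**Figure D5:**
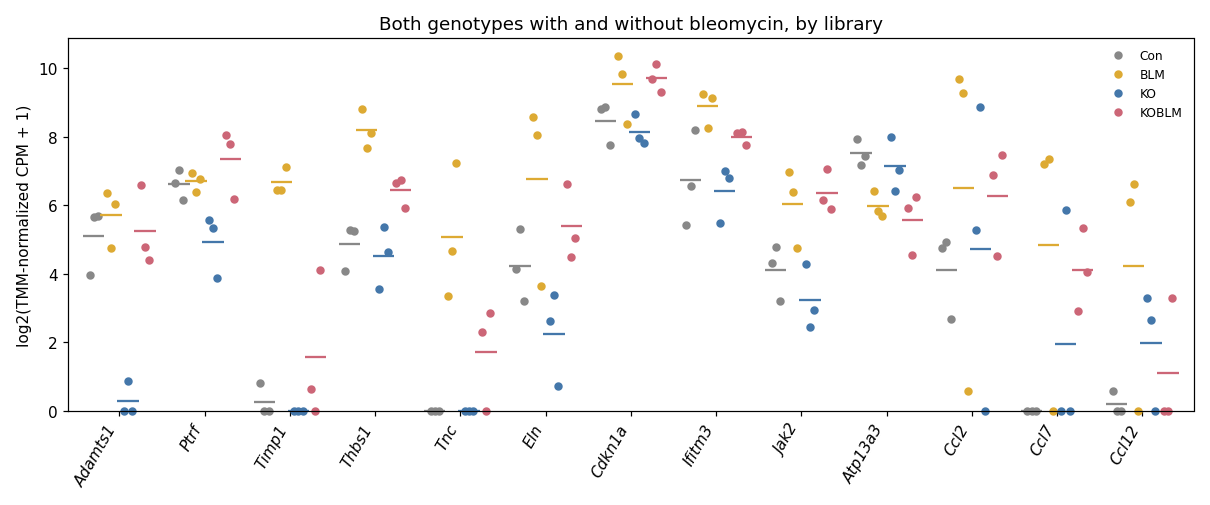
Level of 13 named genes in log2(TMM-normalized CPM + 1) in the libraries of all 4 groups (3 mice each); points are libraries and bars the means of the plotted values. The BLM and KOBLM points of Thbs1 lie above the Con and KO points, Adamts1 is near 0 only in KO, and Ccl2, Ccl7 and Ccl12 are high in 2 of 3 BLM libraries while KO and KOBLM overlap.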

How the data were processed

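RNA of the sorted cells was made into QuantSeq 3′ libraries and sequenced as single 75-base reads; the submitters' processing notes name mm10, Bowtie2 and edgeR without versions. The deposited tables hold raw counts per gene symbol (23282 entries) made by the authors, and 35 repeated symbols were summed to 23238. Samples were grouped by their labels. Here edgeR 4.0.16 (R 4.3.3) filtered low counts (filterByExpr, 13054 genes kept), normalized by TMM and fitted all 12 libraries in 1 quasi-likelihood model (8 residual degrees of freedom); contrasts were KOBLM minus KO, BLM minus Con and their difference, two-sided, with Benjamini-Hochberg adjustment. A gene was called at a fold over 1.5 and an unadjusted p under 0.05. The study gives the same fold and a p under 0.05, and does not say whether its p was adjusted. Standard errors were the log2 fold change over the square root of F. Named genes were, per direction, the 12 with the smallest p and the 6 with the highest CPM among called genes without overlap between groups, with a mean of at least 10 CPM in the higher group and no predicted or non-coding symbol, every called list member, up to 4 abundant members per list, cell type markers, Ep300 and the study's chemokines, and per direction the 5 of these called genes with the smallest interaction p. Gene lists, named genes and this comparison were chosen with earlier results of these data known. Counts give counting error only, and at a floor of 3 counts the limit was 0.278 to 0.412 CPM in the KO and KOBLM libraries. Alternatives were other normalizations, no filter, DESeq2 1.42.0, a replicate block, fewer groups and leaving out libraries. P-values of the fit rest on the spread between mice within groups of 3, estimated over all 12 libraries. The Con and BLM mice thus also enter the test of KOBLM against KO. Upstream sequence was taken from RefSeq (GRCm38.p6), and 40 of the 50 named called genes had an entry.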

Additional observations from a re-analysis of the deposited data

Results flagged for a closer look

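The bleomycin effects of the knockout and the control genotype were compared by edgeR's interaction test. Of the genes named here, 20 had an unadjusted p under 0.05 in it (adjusted p = 1 for each). Some were named for a small interaction p, so their number is no independent evidence. Over all tested genes 368 were under that threshold, where 653 would be if no gene differed. The difference of log2 effects, knockout minus control genotype, was 6.92 for Adamts1, 2.42 for Ptrf, 2.64 for Ece1, -4.00 for Parp2 and -5.50 for Mzt2, all genes with counts in each of the 4 groups. It was -6.96 for Clspn and -7.36 for Espl1, which had at most 3 counts in any KOBLM library.

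Apart from Hba-a1, the other values come from genes at 0 in all libraries of a group, or at 3 counts or fewer, so their size depends on the prior count of the fit and is no bound. They were 8.98 for Dpt, 11.55 for Vcam1, 8.35 for Ackr3, -11.23 for Arhgef39, -11.37 for Entpd2, -11.56 for Tbc1d7, -10.65 for Kif2c, -14.02 for Dnmt3b, -19.81 for Cxcl13 and -12.75 for Ccl7. Ly6d, a small membrane protein of the Ly6 family, had 1, 0 and 3 counts in KO, 133, 212 and 20 in KOBLM, 106, 243 and 95 in Con and 0 in all 3 BLM libraries, for a difference of 16.84. Its call in the knockout was lost without KO 1, KO 2 or KOBLM 1. S1pr5, a receptor for sphingosine 1-phosphate, was at 0 in KO and BLM and had 78, 80 and 109 counts in KOBLM and 32, 89 and 0 in Con, for a difference of 17.98, and its call in the knockout was lost without any single KO library. The globin Hba-a1, at 7.34, had counts in KO, KOBLM and Con, with 335, 53 and 0 in BLM. Of the 20 genes, 9 had a positive and 11 a negative difference.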

How the results depend on the processing

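Under DESeq2 size factors, library size alone, no filter on low counts and without Rn45s, the count of calls stayed within 1.5 times 221. DESeq2's Wald test called 460 genes (293 higher, 167 lower) and, at an adjusted p under 0.05, 57 (37 and 20), against 0 for edgeR in either direction. A fit of KO and KOBLM alone called 138 (95 and 43). Without both libraries with the fewest genes, a setting chosen after seeing the data, 69 were called (58 and 11). Leaving out 1 library gave 105 to 433 calls, 44 to 356 higher and 21 to 148 lower. The highest total came without BLM 3, which is in neither group and enters only through the joint fit. Same-numbered libraries did not deviate together (correlations of 0.075, -0.114 and -0.100), so numbers do not pair the mice; a replicate block called 100 (80 and 20). The interaction test's 368 calls became 706 without the filter, 242 with the replicate block, 625 with DESeq2, 0 after adjustment, and 332 to 672 without 1 library (672 without KO 1, 652 without BLM 3). The causes were not tested. Among the called genes named and the study's 3 chemokines, directions reversed for the chemokines: Ccl2 was 2.10 and Ccl12 2.68 with the replicate block, and Ccl7 was -1.35 without both libraries with the fewest genes. Without 1 library Ccl2 ranged from -1.28 to 2.44 (2.44 without KO 2), Ccl12 from -8.44 to 0.18 and Ccl7 from -0.76 to 10.63. No called gene named in the text changed direction in any setting that gave it a value, and Ldhb is at 0 without KOBLM 3. Many of these genes are at 0 in a whole group or were chosen for groups without overlap. Their direction could hardly reverse, so this is no evidence of a stable effect. Depth limits detection to genes above 3 counts per library, and 3 mice per group with this spread limit it further. List medians near 0 also changed sign in some settings: the ATII list in 3, MHC class II in 2, interferon-stimulated genes in 5, oxidative phosphorylation in 1 and ribosomal proteins in 9.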

Other observations

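The lists of glycolysis, lipid and chromatin genes hold abundant members that were not described above. Hk2, the hexokinase that starts glycolysis in activated cells, had 513, 1581 and 400 counts in KO and 1310, 4500 and 2479 in KOBLM (log2 difference 1.39 ± 0.74, SE of the edgeR fit), with overlap in CPM between the groups. Abcg1, a cholesterol exporter of macrophages, had 16451, 1616 and 17656 counts against 3609, 6501 and 2994 (-1.23 ± 0.98). Hdac7, a class IIa histone deacetylase, had 805, 791 and 1151 against 2896, 1533 and 1089 (1.13 ± 0.59), every KOBLM library above every KO library in CPM. Ncoa1, a nuclear receptor coactivator with acetyltransferase activity, had 1201, 577 and 3103 against 723, 132 and 516 (-1.45 ± 0.72). Of these 4 genes none passed the test.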
